A study of Mus musculus with 32 samples.

Results

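The whole-cortex RNA of single-housed mice that were given fluoxetine and are labelled as anxious (Sh + Flx anxious) was compared with that of single-housed mice on vehicle (Sh). The comparison held 8 of the 32 libraries of the series, namely the 4 labelled as input RNA in each of these groups. Sh + Flx anxious mice were housed alone from weaning, received fluoxetine at 0.167 g/L in the drinking water for 21 days and were classed by behaviour, which the study based on low exploration of the centre of an open field. Sh mice were housed alone from weaning, received vehicle and are labelled as behaving normally. The series further holds single-housed mice on the same fluoxetine course that are labelled as behaving normally (Sh + Flx) and group-housed mice on vehicle (Gh), and both enter here only as further reference. All mice were males of the S100a10 bacTRAP line, Tg(S100a10-EGFP/Rpl10a)ES691Htz, in which a transgene driven by S100a10 regulatory sequence tags the ribosomes of layer 5a pyramidal cells with EGFP. Each library pooled the cortices of 3 mice, with hippocampi and striata taken off. Fluoxetine treatment and the selection of mice that were anxious on it cannot be told apart in this comparison. The labels name layer 5a S100a10 neurons as the cell type of the input libraries too, but the input was taken before the ribosome pull-down. The interneuron gene Gad2, the astrocyte gene Slc1a2 and the oligodendrocyte gene Mbp were detected in all 8 libraries, Mbp at 174 CPM or more. Their detection alone does not set input apart from pull-down RNA, which holds such genes too. The values are taken as those of whole cortex from the library titles and the study's methods.

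Fluoxetine blocks the serotonin transporter and so prolongs serotonin signaling in the cortex. Its benefit builds over weeks, and changes of gene expression in cortical neurons are among the adaptations studied for it. When neurons fire, calcium and cAMP signals drive a first wave of immediate early transcription factors such as Fos, Egr1 and the Nr4a family, and a later wave of effector genes such as Bdnf, Nptx2 and Inhba that act at synapses. Social isolation of young mice is known to alter myelin in the frontal cortex, where mature oligodendrocytes arise from precursor cells and wrap axons.

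The 4 Sh + Flx anxious libraries held 20907109 to 29668891 counts on genes, against 19265435 to 29303133 in the 4 Sh libraries. All levels are given as CPM, the counts of a gene set to 1 common library total with TMM scaling. Differences are log2 fold changes of Sh + Flx anxious over Sh from edgeR's quasi-likelihood test, with n = 4 libraries each. The p-values were adjusted by Benjamini and Hochberg over 15690 genes. A gene was called at an adjusted p under 0.05. These p-values measure only the spread between pools of mice. Within each group, replicates 1 and 4 were alike, as were replicates 2 and 3. In Sh + Flx anxious, the counts of these pairs gave a chi-square per gene of 10 and 5.79 on average, against 14.4 to 17.2 for the other pairs. In Sh these values were 7.55 and 5.96, against 11.3 to 12 for the other pairs. The labels do not say what the like replicates share, and a count of calls after summing them is given beside the main results.

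Fluoxetine-treated anxious mice differed from isolated vehicle mice in 1076 of 15690 genes (6.86%), with 625 higher (3.98%) and 451 lower (2.87%). Without adjustment 2834 genes had a p under 0.05. The changes were small, with a median size of 0.40 on the log2 scale among called genes and 794 of them (73.8%) under 1.5-fold, while 71 were at least 2-fold higher and 32 at least 2-fold lower. The libraries of both groups did not overlap in 957 of the called genes, and over all genes tested 12% did not overlap. The number of calls fell to 381, with 254 higher and 127 lower, when replicates 1 and 4 and replicates 2 and 3 were summed, and 378 of these were among the 1076. The median log2 fold change of all genes was -0.0011.

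**Figure D1:**
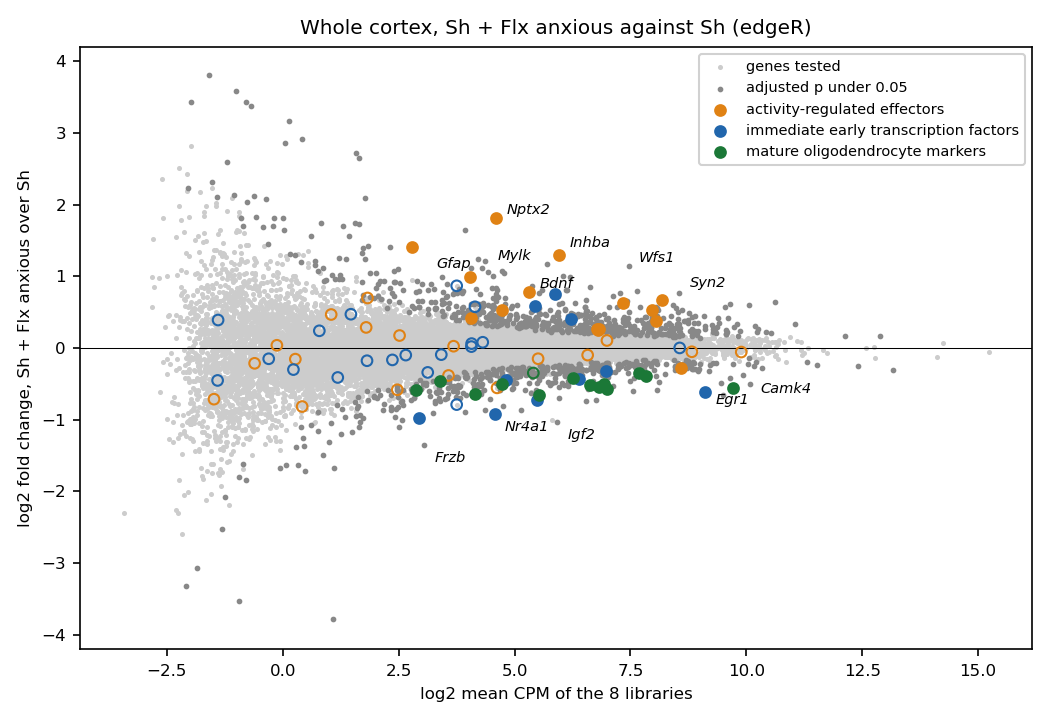
Each point is a gene tested in whole cortex; the x axis is the log2 mean CPM of the 8 libraries and the y axis the log2 fold change of Sh + Flx anxious over Sh. Dark grey points are the 1076 genes with an adjusted p under 0.05, and colours mark 3 gene lists, filled where called. Most coloured effectors lie above 0 and the oligodendrocyte markers below it; 3 genes lie outside the y axis.

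Among the genes higher in Sh + Flx anxious, Syn2 had the smallest p. Syn2, which encodes the synaptic vesicle protein synapsin II (chromosome 6, 115134902 to 115282626 of GRCm38), had 479.6, 458, 455 and 498 CPM in Sh + Flx anxious, against 282, 288, 282 and 262 CPM in Sh. Its lowest Sh + Flx anxious library was above its highest Sh library, a 1.70-fold difference (log2 fold change 0.76 ± 0.05 (SE), adjusted p = 7.04e-11). Rimbp2, whose protein ties calcium channels to vesicle release sites, had 83.5, 89.8, 85 and 94.2 CPM in Sh + Flx anxious, against 45.2, 43.1, 46.6 and 40.8 CPM in Sh. It was 2-fold higher without overlap (log2 fold change 1 ± 0.07 (SE), adjusted p = 2.17e-10). Mylk, a myosin light chain kinase, had 72.7, 79.4, 66.6 and 71.1 CPM in Sh + Flx anxious, against 29.2, 34.8, 31.5 and 33.1 CPM in Sh. It too was higher in every Sh + Flx anxious library than in any Sh library (log2 fold change 1.17 ± 0.08 (SE), adjusted p = 1.37e-10). Wfs1, which encodes the endoplasmic reticulum membrane protein wolframin (chromosome 5, 36966104 to 36988982), had 221, 243, 256 and 251 CPM in Sh + Flx anxious, against 129, 98.2, 92.4 and 121 CPM in Sh. The groups did not overlap, and Wfs1 was 2.21-fold higher (log2 fold change 1.14 ± 0.09 (SE), adjusted p = 5.53e-10). Hpcal4 and Kcnip3, both neuronal calcium sensors, of which the Kcnip3 product also binds A-type potassium channels, had log2 fold changes of 0.64 and 0.80. Further genes in the leading 15 were Trim2 (0.59), a ubiquitin ligase, Amph (0.60), the endocytic protein amphiphysin, Rap1gap2 (0.77), a Rap1 GTPase activator, Blnk (1.64), an adaptor known from B cells, Trnp1 (0.86), Strip2 (0.81), Plekha2 (1.08) and Trp53i11 (0.82). Nptx2, given with the effectors, completes the leading 15. None of the 15 lost its call in any alternative analysis, and all were chosen for their small p without overlap.

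Among the genes lower in Sh + Flx anxious, the smallest p belonged to Camk4, the calcium and calmodulin-dependent kinase that phosphorylates CREB (chromosome 18, 32934941 to 33195767). It had 912, 899, 909.9 and 859 CPM in Sh + Flx anxious, against 1205, 1312, 1324 and 1242 CPM in Sh. Each Sh + Flx anxious library lay below each Sh library, by 1.42-fold on average (log2 fold change -0.51 ± 0.04 (SE), adjusted p = 5.10e-09). Igf2, a growth factor made in the brain mainly by meninges and choroid plexus, had 31.8, 44.8, 43.8 and 38 CPM in Sh + Flx anxious, against 80.9, 80.9, 93.5 and 68.1 CPM in Sh. It was 2.05-fold lower without overlap (log2 fold change -1.03 ± 0.13 (SE), adjusted p = 1.88e-06). Frzb, a secreted antagonist of Wnt signaling, had the largest drop of the leading 15, with 3.71 to 5.86 CPM in Sh + Flx anxious, against 9.59 to 12.9 CPM in Sh (log2 fold change -1.36 ± 0.16 (SE), adjusted p = 9.11e-07). Neat1, the nuclear RNA that builds paraspeckles, had 54.1, 51, 50.9 and 46.8 CPM in Sh + Flx anxious, against 71.7, 80.3, 71.5 and 72.7 CPM in Sh. It was lower in all 4 Sh + Flx anxious libraries (log2 fold change -0.55 ± 0.07 (SE), adjusted p = 3.17e-06). Hlf, a clock-controlled transcription factor, Arpp21, a cAMP-regulated phosphoprotein, and Lamp5, a membrane protein of upper-layer and some inhibitory neurons, had log2 fold changes of -0.49, -0.41 and -0.70. The others were Cnp, described with the myelin genes, and Kctd1 (-0.57), AI593442 (-0.65), Palm2 (-0.59), Rassf3 (-0.86), Nudt4 (-0.48), Ankrd63 (-0.80) and Fmn1 (-0.46), a formin that nucleates actin. These 15 kept their calls in every alternative analysis.

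Effector genes and immediate early transcription factors that neuronal activity induces were both among the called genes. Of 33 effectors tested, 14 rose and 1 fell, with a median log2 fold change of 0.25, against 3.98% higher and 2.87% lower over all genes. Of 29 immediate early transcription factors tested, 3 rose and 7 fell, with a median of -0.15. Both lists, and those given further on, were chosen with earlier results of these data known, so their shares are descriptions only. Without Sh + Flx anxious replicate 2, 5 of these factors were higher and 5 lower (median -0.02), and without Sh replicate 2, 3 were higher and 5 lower (median 0.02). With the like replicates summed, 8 effectors remained higher and none lower, while 1 transcription factor remained higher and 3 lower.

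Nptx2, a secreted pentraxin that clusters AMPA receptors at excitatory synapses (chromosome 5, 144545887 to 144557478), had 36.8, 37.6, 36.5 and 39.8 CPM in Sh + Flx anxious, against 9.60, 9.38, 11.4 and 12.6 CPM in Sh. The lowest Sh + Flx anxious library was far above the highest Sh library, a 3.52-fold difference (log2 fold change 1.82 ± 0.14 (SE), adjusted p = 5.53e-10). Its relative Nptx1 had 342, 383, 354 and 341 CPM in Sh + Flx anxious, against 232, 216, 219 and 227 CPM in Sh, which did not overlap (log2 fold change 0.67 ± 0.06 (SE), adjusted p = 2.96e-08). Inhba, which encodes the activin A subunit that protects active neurons (chromosome 13, 16004256 to 16031609), had 97.2, 72.2, 76.1 and 108 CPM in Sh + Flx anxious, against 33.9, 37.4, 34.9 and 38.1 CPM in Sh. It was 2.45-fold higher, with replicates 1 and 4 above replicates 2 and 3 within Sh + Flx anxious (log2 fold change 1.29 ± 0.11 (SE), adjusted p = 5.10e-09). Bdnf, the neurotrophin that strengthens synapses and is long tied to antidepressant action (chromosome 2, 109674700 to 109727043), had 57.3, 44.1, 45 and 54.9 CPM in Sh + Flx anxious, against 30.7, 29.1, 29.7 and 28.1 CPM in Sh. The groups did not overlap and Bdnf was 1.71-fold higher (log2 fold change 0.78 ± 0.10 (SE), adjusted p = 5.89e-06). Nrn1, the neurite growth protein neuritin, had 267 to 321 CPM in Sh + Flx anxious, against 198 to 216 CPM in Sh (log2 fold change 0.53 ± 0.05 (SE), adjusted p = 8.15e-08). Tll1, a secreted metalloprotease, had 7.96 to 11.8 CPM in Sh + Flx anxious, against 2.75 to 5.40 CPM in Sh (log2 fold change 1.41 ± 0.21 (SE), adjusted p = 3.87e-05). Lingo1, a membrane protein that limits neurite growth and myelination, and Sorcs3, a postsynaptic sorting receptor, were higher by 0.38 and 0.54 on the log2 scale.

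The remaining effectors moved less evenly. Rgs2, which limits G protein signaling, had 237, 154, 156 and 242 CPM in Sh + Flx anxious, against 117, 130, 135 and 127 CPM in Sh. All 4 treated libraries were above the Sh libraries, and replicates 1 and 4 were the highest (log2 fold change 0.63 ± 0.13 (SE), adjusted p = 0.00149). Ptgs2, the inducible cyclooxygenase, had 29.5, 15.2, 16.2 and 27 CPM in Sh + Flx anxious, against 11.4, 10.7, 10.8 and 11.5 CPM in Sh and shared this pattern (log2 fold change 0.99 ± 0.25 (SE), adjusted p = 0.0140). The higher calls of Baiap2 (0.26), Vgf (0.42), Gpr22 (0.27) and Scg2 (0.25) and the lower call of the neurofilament gene Nefm (-0.28) were weaker. The call of Ptgs2 was lost without Sh + Flx anxious replicates 1 or 4 (adjusted p up to 0.0776). For Baiap2 it was lost without Sh + Flx anxious replicate 2 (adjusted p up to 0.0600). The call of Vgf was lost without Sh + Flx anxious replicates 1 or 2 or Sh replicates 1 or 3 or 4 (adjusted p up to 0.0776). For Gpr22 it was lost without Sh + Flx anxious replicates 1 or 2 or 3 or Sh replicates 1 or 2 (adjusted p up to 0.118). The call of Scg2 was lost without Sh + Flx anxious replicates 1 or 2 or Sh replicates 1 or 2 or 3 (adjusted p up to 0.160). For Nefm it was lost without Sh + Flx anxious replicate 2 or Sh replicates 2 or 4 (adjusted p up to 0.0894).

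Egr1, the zinc finger factor of the first wave (chromosome 18, 34861207 to 34864956), had 518, 337, 353 and 538 CPM in Sh + Flx anxious, against 544, 786, 776 and 564 CPM in Sh. The Sh + Flx anxious libraries were all below the Sh libraries (log2 fold change -0.61 ± 0.12 (SE), adjusted p = 7.53e-04). Replicates 1 and 4 were close between the groups, however, and most of the gap lay in replicates 2 and 3. Fosl2, a member of the AP-1 family (chromosome 5, 32136472 to 32157840), had 36.1, 30.2, 28.8 and 39.6 CPM in Sh + Flx anxious, against 47.7, 62.4, 61.9 and 50.9 CPM in Sh. The groups did not overlap and Fosl2 was 1.65-fold lower (log2 fold change -0.72 ± 0.11 (SE), adjusted p = 4.25e-05). The orphan nuclear receptors Nr4a2 and Nr4a3 were lower, Nr4a2 with 67.3 to 77 CPM in Sh + Flx anxious, against 87.5 to 100.2 CPM in Sh (log2 fold change -0.44 ± 0.06 (SE), adjusted p = 2.75e-05). Nr4a3 had 4.29 to 6.17 CPM in Sh + Flx anxious, against 8.15 to 11.8 CPM in Sh (log2 fold change -0.98 ± 0.17 (SE), adjusted p = 3.05e-04). Their relative Nr4a1 had 19.2, 13.2, 12.6 and 20.6 CPM in Sh + Flx anxious, against 17.5, 46.8, 44.8 and 15.5 CPM in Sh, so that its difference rested on Sh replicates 2 and 3 and the groups overlapped (log2 fold change -0.93 ± 0.24 (SE), adjusted p = 0.0147). Bhlhe40, a repressor in the clock and in activity responses, had a log2 fold change of -0.32, and Per1 (-0.44), a clock gene that activity also induces, was the other lower call. Jun, the AP-1 partner of Fos, went the other way with 56.6, 48.5, 47.9 and 55.7 CPM in Sh + Flx anxious, against 31.1, 36.9, 39.5 and 31.8 CPM in Sh. All 4 treated libraries exceeded the Sh libraries (log2 fold change 0.58 ± 0.10 (SE), adjusted p = 1.95e-04). Klf10 rose as well (0.76 ± 0.14 (SE), adjusted p = 6.27e-04), as did Ier5 (0.41 ± 0.09 (SE), adjusted p = 0.00452). The call of Nr4a1 was lost without Sh + Flx anxious replicates 2 or 3 or Sh replicates 2 or 3 (adjusted p up to 0.117). For Per1 it was lost without Sh + Flx anxious replicates 1 or 2 or 3 or 4 or Sh replicates 2 or 3 (adjusted p up to 0.226). With the like replicates summed, Fosl2, Jun, Nr4a2 and Nr4a3 remained called, while Egr1 (adjusted p = 0.0696), Klf10 (0.0558), Ier5 (0.133), Bhlhe40 (0.0687), Nr4a1 (0.194) and Per1 (0.320) did not.

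The fastest genes of the first wave were split within both groups and not between them. Fos had 16.5, 3.48, 5.44 and 15.9 CPM in Sh + Flx anxious, against 4.92, 15.9, 16.6 and 6.96 CPM in Sh. The high libraries were replicates 1 and 4 in Sh + Flx anxious and replicates 2 and 3 in Sh (log2 fold change -0.09 ± 0.35 (SE), adjusted p = 0.935). Arc, a dendritic effector, and Npas4, a neuron-specific activity factor, were divided in a like way between the replicates, with log2 fold changes of -0.15 and 0.87 and adjusted p of 0.801 and 0.192. Fos, Arc and Npas4 were singled out after their values were seen. Over the 29 immediate early factors, the summed level was 1617, 1237, 1231 and 1647 CPM in Sh + Flx anxious, against 1450, 1915, 1916 and 1490 CPM in Sh. The 14 astrocyte markers, which go with this division in the opposite sense, summed to 3223, 4558, 4283 and 3081 CPM in Sh + Flx anxious, against 4536, 3202, 3048 and 4568 CPM in Sh. Beside the summing of the like replicates, this division was also entered in the fit. With the like replicates as a term, 1101 genes were called, and the early factors were again 3 higher and 7 lower. With that term crossed in Sh + Flx anxious, chosen after the data were seen, 1403 genes were called, with 3 such factors higher and 7 lower. A replicate block gave 996 calls. The part of the division in the differences between the groups was not tested further.

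**Figure D2:**
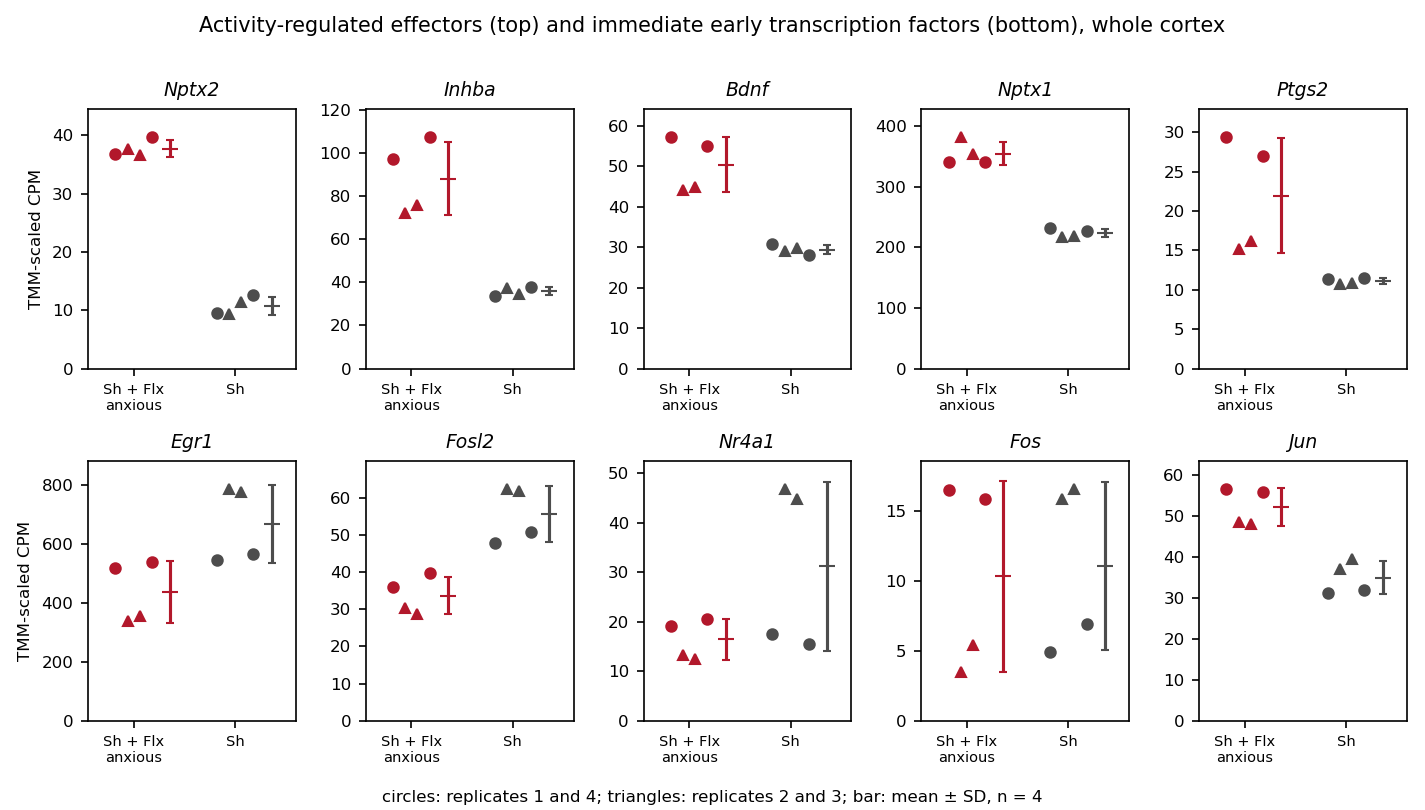
TMM-scaled CPM of 5 effector genes (top) and 5 immediate early transcription factors (bottom) in the 4 Sh + Flx anxious (red) and 4 Sh (grey) libraries of whole cortex, with mean and SD. Circles are replicates 1 and 4 and triangles replicates 2 and 3: Nptx2, Inhba and Bdnf separate by group, whereas Fos and Nr4a1 are split by replicate within a group. Egr1 is split by replicate too, though without overlap between the groups.

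Neuropeptides and the granins that pack them into dense-core vesicles were among the genes that rose. Of 34 tested, 9 rose and 2 fell (median log2 fold change 0.02), against 3.98% higher and 2.87% lower over all genes. With the like replicates summed, 5 of these 11 calls remained. Chga, which encodes chromogranin A, a core protein of secretory granules (chromosome 12, 102554941 to 102565027), had 36.5, 34, 36.5 and 40.8 CPM in Sh + Flx anxious, against 19.9, 15.6, 17.6 and 18.3 CPM in Sh. It was 2.08-fold higher in Sh + Flx anxious without overlap (log2 fold change 1.05 ± 0.09 (SE), adjusted p = 5.28e-09). Chgb, encoding chromogranin B, had 905, 1018, 1038 and 946 CPM in Sh + Flx anxious, against 694, 621, 573 and 668 CPM in Sh, again with no overlap (log2 fold change 0.61 ± 0.07 (SE), adjusted p = 1.79e-06). Npy, the peptide of many somatostatin interneurons, had 31.6, 30.6, 31.5 and 39.7 CPM in Sh + Flx anxious, against 23.1, 20.9, 19.1 and 24.4 CPM in Sh. All 4 treated libraries were higher, replicate 4 most of all (log2 fold change 0.61 ± 0.10 (SE), adjusted p = 1.92e-04). Cck, a peptide of both interneurons and pyramidal cells, rose by 0.39 ± 0.07 (SE), adjusted p = 3.69e-04 on the log2 scale. Crhbp, which binds and silences corticotropin-releasing hormone, rose by 0.62 ± 0.13 (SE), adjusted p = 0.00283. Oxtr, the oxytocin receptor, rose by 0.51 ± 0.11 (SE), adjusted p = 0.00304, and none of these 3 genes overlapped between the groups. Cartpt, the CART peptide, had 1.84, 1.48, 2.24 and 1.45 CPM in Sh + Flx anxious, against 4.02, 4.32, 4.03 and 3.33 CPM in Sh. It fell to less than the lowest Sh level in each treated library (log2 fold change -1.17 ± 0.21 (SE), adjusted p = 3.78e-04). The somatostatin receptor Sstr1 (0.58) and Vgf and Scg2, given above, were the other genes that rose, and Npy1r, a receptor of neuropeptide Y, fell (-0.33). The call of Sstr1 was lost without Sh + Flx anxious replicate 2 or Sh replicate 3 (adjusted p up to 0.0694). For Npy1r it was lost without Sh + Flx anxious replicate 4 or Sh replicate 1 (adjusted p up to 0.0959). Sst itself, with 186 to 229 CPM in Sh + Flx anxious, against 188 to 221 CPM in Sh, was not called (log2 fold change 0.05 ± 0.07 (SE), adjusted p = 0.783, 95% interval -0.09 to 0.19).

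The cAMP response element is the site through which CREB acts on many peptide genes. The full element, TGACGTCA, which reads the same on both strands, was searched for in RefSeq promoter windows of GRCm38.p6 that run from 250 bases before to 50 bases after each gene start, 300 bases in all. A gene was counted if any of its windows held the element. Of 27025 genes with a window 549 held it (2.03%), as did 3.31% of tested genes with a window. It was in 21 of 459 genes called higher (4.58%) and in 11 of 325 called lower (3.38%). Of 29 tested neuropeptide genes with a window 6 held it (20.7%), and 3 of these were called, Chgb and Scg2 higher and Cartpt lower. The other 3 were not called, namely Sst (log2 fold change 0.05), Pcsk1 (-0.38) and Sstr2 (0.31). The 3 windows are shown in lower case with the element in capitals, because called genes with the same element moved in both directions. They are chr2:132781392-132781691 on the plus strand for Chgb, chr1:79439977-79440276 on the minus strand for Scg2 and chr13:99900634-99900933 on the minus strand for Cartpt, and the element starts 72, 68 and 112 bases before the start of each gene. A match describes the letters only. None of the 7 called immediate early factors with a window held it. Of 10 called effectors with a window 1 did, namely Scg2, which is counted among the neuropeptides too. The called factors Egr1, Klf10 and Bhlhe40 and the called effectors Nptx2, Nptx1, Nrn1, Vgf and Nefm had no window and were not searched.
Chgb: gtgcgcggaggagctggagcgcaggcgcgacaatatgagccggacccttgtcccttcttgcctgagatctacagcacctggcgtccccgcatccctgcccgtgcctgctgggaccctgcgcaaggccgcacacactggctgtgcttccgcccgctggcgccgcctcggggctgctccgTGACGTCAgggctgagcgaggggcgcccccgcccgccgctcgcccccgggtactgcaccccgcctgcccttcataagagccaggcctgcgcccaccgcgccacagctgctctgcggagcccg
Scg2: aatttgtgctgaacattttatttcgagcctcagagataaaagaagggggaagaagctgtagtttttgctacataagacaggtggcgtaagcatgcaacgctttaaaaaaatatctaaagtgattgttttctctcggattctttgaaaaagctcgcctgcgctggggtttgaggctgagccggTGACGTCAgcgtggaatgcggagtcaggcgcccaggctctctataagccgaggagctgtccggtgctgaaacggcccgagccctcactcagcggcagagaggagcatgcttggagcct
Cartpt: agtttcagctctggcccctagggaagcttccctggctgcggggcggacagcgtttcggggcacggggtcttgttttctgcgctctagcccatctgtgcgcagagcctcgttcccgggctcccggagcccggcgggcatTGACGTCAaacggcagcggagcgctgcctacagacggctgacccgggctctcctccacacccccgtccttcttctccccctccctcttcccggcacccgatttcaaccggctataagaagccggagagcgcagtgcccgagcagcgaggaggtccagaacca

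Genes of the synaptic vesicle and its release machinery moved in both directions. Of 24 tested, 6 rose and 4 fell (median log2 fold change 0.04), against 3.98% higher and 2.87% lower over all genes. Beside Syn2, Slc17a7, the vesicular glutamate transporter of cortical pyramidal cells, had 291, 317, 334 and 348 CPM in Sh + Flx anxious, against 217, 215, 231 and 212 CPM in Sh. It was 1.48-fold higher without overlap (log2 fold change 0.56 ± 0.07 (SE), adjusted p = 1.03e-06). Sv2b, a vesicle glycoprotein, had 859 to 909.5 CPM in Sh + Flx anxious, against 629 to 709 CPM in Sh (log2 fold change 0.42 ± 0.05 (SE), adjusted p = 4.76e-06). Its relative Sv2c (0.32), the active zone scaffold Bsn (0.27) and synapsin I, Syn1 (0.22), were the other genes that rose. The release genes Stx1a (-0.35), Rims1 (-0.21), Unc13a (-0.22) and Rims2 (-0.17) fell slightly. Summing the like replicates left Syn2, Slc17a7 and Sv2b. The 4 lower calls became 1 without Sh + Flx anxious replicate 1 or Sh replicates 1 or 2, and 2 without replicate 3 of either group. The call of Syn1 was lost without Sh + Flx anxious replicate 4 or Sh replicate 1 (adjusted p up to 0.0874). For Rims1 it was lost without Sh + Flx anxious replicates 1 or 3 or Sh replicates 1 or 2 or 3 (adjusted p up to 0.0915). The call of Unc13a was lost without Sh + Flx anxious replicate 1 or Sh replicates 1 or 2 or 3 (adjusted p up to 0.109). For Rims2 it was lost without Sh + Flx anxious replicates 1 or 2 or 3 or 4 or Sh replicates 1 or 2 or 4 (adjusted p up to 0.148).

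Markers of mature oligodendrocytes were lower in Sh + Flx anxious in 13 of 14 cases, against 1 of 10 for those of their precursors. Of the 14 mature markers, 13 fell and none rose (median log2 fold change -0.51, against 2.87% of all genes called lower), and 10 of the 13 remained with the like replicates summed. Cnp, an enzyme of the myelin sheath (chromosome 11, 100574909 to 100591875), had 97.1, 103, 104 and 100.5 CPM in Sh + Flx anxious, against 144, 149, 138 and 144 CPM in Sh. The spread within each group was small beside the gap between them (log2 fold change -0.51 ± 0.06 (SE), adjusted p = 4.41e-07). Mobp, a small basic protein of compact myelin, had 79.2 to 105 CPM in Sh + Flx anxious, against 126 to 139 CPM in Sh (log2 fold change -0.55 ± 0.09 (SE), adjusted p = 8.20e-05). Mbp, which compacts the sheath, had 174 to 195 CPM in Sh + Flx anxious, against 226 to 236 CPM in Sh (log2 fold change -0.35 ± 0.06 (SE), adjusted p = 2.36e-04). Mog, on the outer face of myelin, had 11.1 to 15.7 CPM in Sh + Flx anxious, against 18.7 to 24.8 CPM in Sh (log2 fold change -0.65 ± 0.13 (SE), adjusted p = 9.54e-04). Trf, the iron carrier (-0.66), Mal, a proteolipid (-0.57), Gjc3, a connexin (-0.52), Ugt8a, which makes myelin galactolipids (-0.42), and Aspa, which frees acetate for lipid synthesis (-0.50), were lower too. Ermn (-0.39), Opalin (-0.58) and Mag (-0.46) were the weaker members. The call of Ermn was lost without Sh + Flx anxious replicates 2 or 3 or Sh replicate 2 (adjusted p up to 0.0630). For Opalin it was lost without Sh + Flx anxious replicates 1 or 4 or Sh replicates 1 or 4 (adjusted p up to 0.110). The call of Mag was lost without Sh + Flx anxious replicates 1 or 3 or 4 or Sh replicates 1 or 2 or 4 (adjusted p up to 0.274). Myrf, the transcription factor that mature oligodendrocytes need to make myelin, is not in the list and was singled out after its values were seen. It had 12.7 to 15.9 CPM in Sh + Flx anxious, against 18.2 to 22.7 CPM in Sh (log2 fold change -0.55 ± 0.11 (SE), adjusted p = 8.88e-04). In bulk tissue, fewer cells of a type and less RNA per cell cannot be told apart.

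Of 10 precursor markers 1 fell, Olig1 (-0.34 ± 0.08 (SE), adjusted p = 0.00990), a factor of the whole lineage. The call of Olig1 was lost without Sh + Flx anxious replicate 1 (adjusted p up to 0.0590). The median of the list was 0.02. Pdgfra, the growth factor receptor that defines precursors, had 13.7, 18.4, 20.6 and 15.6 CPM in Sh + Flx anxious, against 18.6, 17.1, 15.2 and 19.5 CPM in Sh. The groups overlapped fully (log2 fold change -0.04 ± 0.14 (SE), adjusted p = 0.919, 95% interval -0.33 to 0.24). Olig2 had a log2 fold change of 0.05 ± 0.11 (SE), adjusted p = 0.897 and a 95% interval of -0.19 to 0.28. Summed over 13 of the 14 mature markers, the level was 933, 982, 944 and 926 CPM in Sh + Flx anxious, against 1265, 1299, 1296 and 1350 CPM in Sh. Sh + Flx libraries summed to between 1098 and 1139 CPM and Gh libraries to between 1364 and 1510 CPM, so that Sh + Flx anxious was lowest of the 4 groups and Sh + Flx the next, and neither reached the lowest Sh library.

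**Figure D3:**
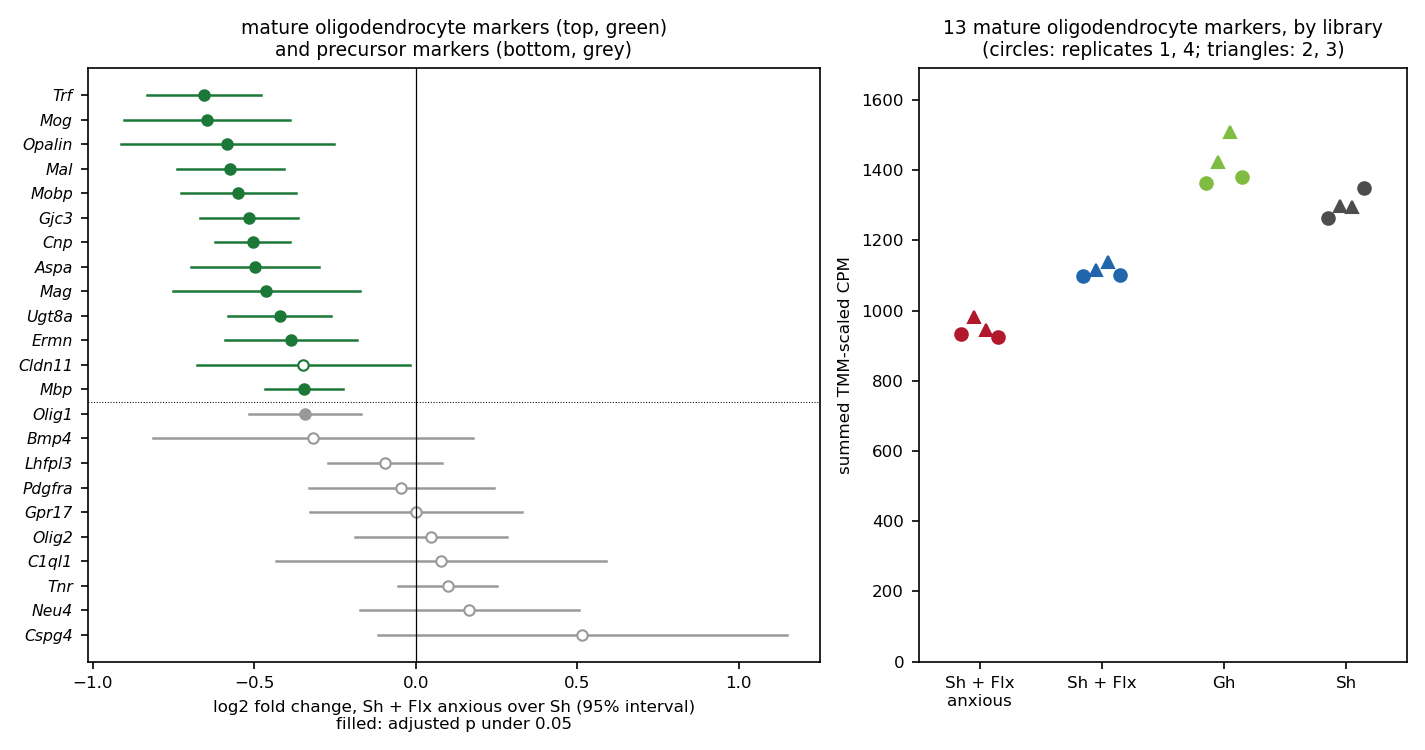
Left, log2 fold change of Sh + Flx anxious over Sh with its 95% interval for 13 mature oligodendrocyte markers (green) and precursor markers (grey), filled where the adjusted p was under 0.05. Right, the summed TMM-scaled CPM of the same 13 mature markers in each library, by group: the 4 Sh + Flx anxious libraries lie between 926 and 982 CPM and the 4 Sh libraries between 1265 and 1350 CPM.

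Markers of some tissues next to the cortex were lower in Sh + Flx anxious as well, and their part in the differences above was not tested. Markers of striatal spiny neurons, whose tissue was dissected off, fell in 8 and rose in 1 of 14 tested members (median -0.35). Over all genes, 2.87% were lower and 3.98% higher. With the like replicates summed, 2 of these 9 striatal calls remained. The 8 lower calls became 3 without Sh + Flx anxious replicate 4, 4 without Sh + Flx anxious replicate 1 or Sh replicate 3, and 5 without Sh replicates 1 or 4. Summed over 13 of them, the level was 887, 1044, 1005 and 862 CPM in Sh + Flx anxious, against 1138, 1038, 1114 and 1128 CPM in Sh. The groups overlapped in this sum only by Sh + Flx anxious replicate 2, which was just above Sh replicate 2. Ppp1r1b, the dopamine-regulated phosphatase inhibitor of the same cells, which deep cortical neurons express as well, instead rose, with 115 to 131 CPM in Sh + Flx anxious, against 90.5 to 98.8 CPM in Sh (log2 fold change 0.35 ± 0.06 (SE), adjusted p = 1.04e-04). Drd2, the dopamine receptor of indirect pathway cells, had 11.7 to 19.5 CPM in Sh + Flx anxious, against 21 to 26.3 CPM in Sh (log2 fold change -0.53 ± 0.13 (SE), adjusted p = 0.0105). The call of Drd2 was lost without Sh + Flx anxious replicates 1 or 4 (adjusted p up to 0.0639). Hippocampal markers, of tissue also dissected off, had 1 of 12 members called higher, Wfs1, and 1 lower, Prox1 (-0.34). The call of Prox1 was lost without Sh + Flx anxious replicates 3 or 4 or Sh replicates 1 or 2 or 3 or 4 (adjusted p up to 0.139). The 12 hippocampal markers summed to 399.9 to 437 CPM in Sh + Flx anxious, against 271 to 306 CPM in Sh. Without Wfs1, which is a marker of upper layers too, the sums overlapped, at 154 to 184 CPM in Sh + Flx anxious and 176 to 184 CPM in Sh. The 10 thalamic markers summed to 466 to 480.2 CPM in Sh + Flx anxious, against 536 to 576 CPM in Sh, and 1 of them, Rora, was called lower (-0.27). Rora, which the clock list holds too, made up most of this sum in both groups, so the sum mainly follows that gene. The 20 meningeal fibroblast markers summed to 203 to 269 CPM in Sh + Flx anxious, against 298 to 317 CPM in Sh, with 4 members called lower, 1 higher and a median of -0.05. Most of the gap between these sums lay in Igf2, given above, and Ptgds. Ptgds, the prostaglandin D synthase of meninges and oligodendrocytes, had 60.1, 84.2, 75.3 and 60.2 CPM in Sh + Flx anxious, against 121, 109, 114 and 124 CPM in Sh (log2 fold change -0.74 ± 0.10 (SE), adjusted p = 3.80e-06). Choroid plexus and ependyma markers varied most, and 9 of them summed to 30.9, 109, 93.4 and 33.7 CPM in Sh + Flx anxious, against 135, 114, 106 and 116 CPM in Sh. Their most abundant gene, Ttr, the transthyretin of choroid plexus, had 10.9, 67.6, 58.8 and 12.4 CPM in Sh + Flx anxious, against 89.5, 71, 62.1 and 73.4 CPM in Sh. Low values were confined to Sh + Flx anxious replicates 1 and 4 among the 8 libraries, and Ttr was not called (log2 fold change -1 ± 0.36 (SE), adjusted p = 0.102). Folr1, Aqp1, Tmem212 and Rarres2, other markers of this list, were too low to be tested. Pomc, the precursor of pituitary and hypothalamic peptides, had 0.247, 0.524, 0.0800 and 0.303 CPM in Sh + Flx anxious, against 8, 0.514, 0.161 and 7.17 CPM in Sh, so that its lower call (log2 fold change -3.78 ± 0.78 (SE), adjusted p = 0.00184) came from Sh replicates 1 and 4.

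Markers of the cortical layers moved in both directions, where 3.98% of all genes were called higher and 2.87% lower. Of 12 markers of layers 2 to 4, 3 rose (Wfs1, Inhba and Cux2) and 4 fell (Rorb, Lamp5, Rspo1 and Otof). Cux2, a homeobox factor of upper layers, had 45.8 to 51.4 CPM in Sh + Flx anxious, against 30.8 to 35.5 CPM in Sh (log2 fold change 0.52 ± 0.08 (SE), adjusted p = 3.98e-05). Rorb, the nuclear receptor of layer 4, had 409 to 422 CPM in Sh + Flx anxious, against 468 to 534 CPM in Sh (log2 fold change -0.30 ± 0.05 (SE), adjusted p = 1.96e-04). Of 8 markers of layer 5 neurons that project within the forebrain, 3 rose (Sulf2, Deptor and Rspo2) and Pld5 fell, with 15.8 to 17.5 CPM in Sh + Flx anxious, against 24.9 to 29.3 CPM in Sh (log2 fold change -0.72 ± 0.10 (SE), adjusted p = 1.70e-05). The call of Deptor was lost without Sh replicate 1 (adjusted p up to 0.0651). For Rspo2 it was lost without Sh replicates 1 or 2 (adjusted p up to 0.0572). Pcp4, a calmodulin-binding peptide of layer 5 cells that project below the forebrain, had 417 to 464 CPM in Sh + Flx anxious, against 536 to 565 CPM in Sh (log2 fold change -0.32 ± 0.05 (SE), adjusted p = 7.79e-05). It alone was called among 9 such markers. The pan-excitatory gene Neurod2 rose by 0.32 ± 0.06 (SE), adjusted p = 4.65e-04 on the log2 scale. Camk2a, with 2170 to 2432 CPM in Sh + Flx anxious, against 2330 to 2716 CPM in Sh, was not called (95% interval -0.20 to 0.05). S100a10, which names the targeted neurons, had 8.41, 5.57, 7.20 and 8.56 CPM in Sh + Flx anxious, against 7.18, 5.82, 7.70 and 5.46 CPM in Sh. The groups overlapped (log2 fold change 0.19 ± 0.17 (SE), adjusted p = 0.634, 95% interval -0.16 to 0.54).

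Among 18 interneuron markers 2 rose and 1 fell, against 3.98% higher and 2.87% lower over all genes. Gad2, one of the enzymes that make GABA, had 1000, 988, 1011 and 972 CPM in Sh + Flx anxious, against 775, 794, 785 and 779.6 CPM in Sh. It was higher in each treated library (log2 fold change 0.34 ± 0.04 (SE), adjusted p = 3.73e-06). Cck was the other gene that rose, and Lhx6, a factor of somatostatin and parvalbumin cells, fell (-0.32). The call of Lhx6 was lost without Sh + Flx anxious replicates 1 or 2 or 3 or Sh replicates 2 or 3 or 4 (adjusted p up to 0.0949). The vesicular GABA transporter Slc32a1, singled out after its values were seen, was not called (log2 fold change 0.13 ± 0.11 (SE), adjusted p = 0.586, 95% interval -0.09 to 0.35). Among 14 astrocyte markers 1 was called, Gfap, the filament protein of white matter and reactive astrocytes (chromosome 11, 102887336 to 102897200), with 32.6, 27.4, 25.6 and 30.9 CPM in Sh + Flx anxious, against 13.7, 14.6, 15.2 and 12.2 CPM in Sh. All 4 treated libraries were above Sh, by 2.09-fold on average (log2 fold change 1.06 ± 0.10 (SE), adjusted p = 4.28e-08). Within the groups, Gfap was divided between like replicates in the sense opposite to the summed astrocyte level. Replicates 1 and 4 were the higher ones in Sh + Flx anxious and the lower ones in Sh. Other genes that reactive astrocytes induce were singled out after their values were seen. The protease inhibitor Serpina3n rose (0.93 ± 0.17 (SE), adjusted p = 3.69e-04), as did the filament genes Vim (0.63 ± 0.14 (SE), adjusted p = 0.00320) and Nes (1.24 ± 0.28 (SE), adjusted p = 0.00368). With the like replicates summed, Serpina3n and Vim remained called, while Nes did not (adjusted p = 0.0521). No marker was called among 13 of microglia, 12 of endothelium and 11 of mural cells, with medians of -0.04, -0.12 and -0.19 in this edgeR fit. Without adjustment, 1, 2 and 1 of these had a p under 0.05, and DESeq2 called 1 of them, the pericyte gene Rgs5.

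**Figure D4:**
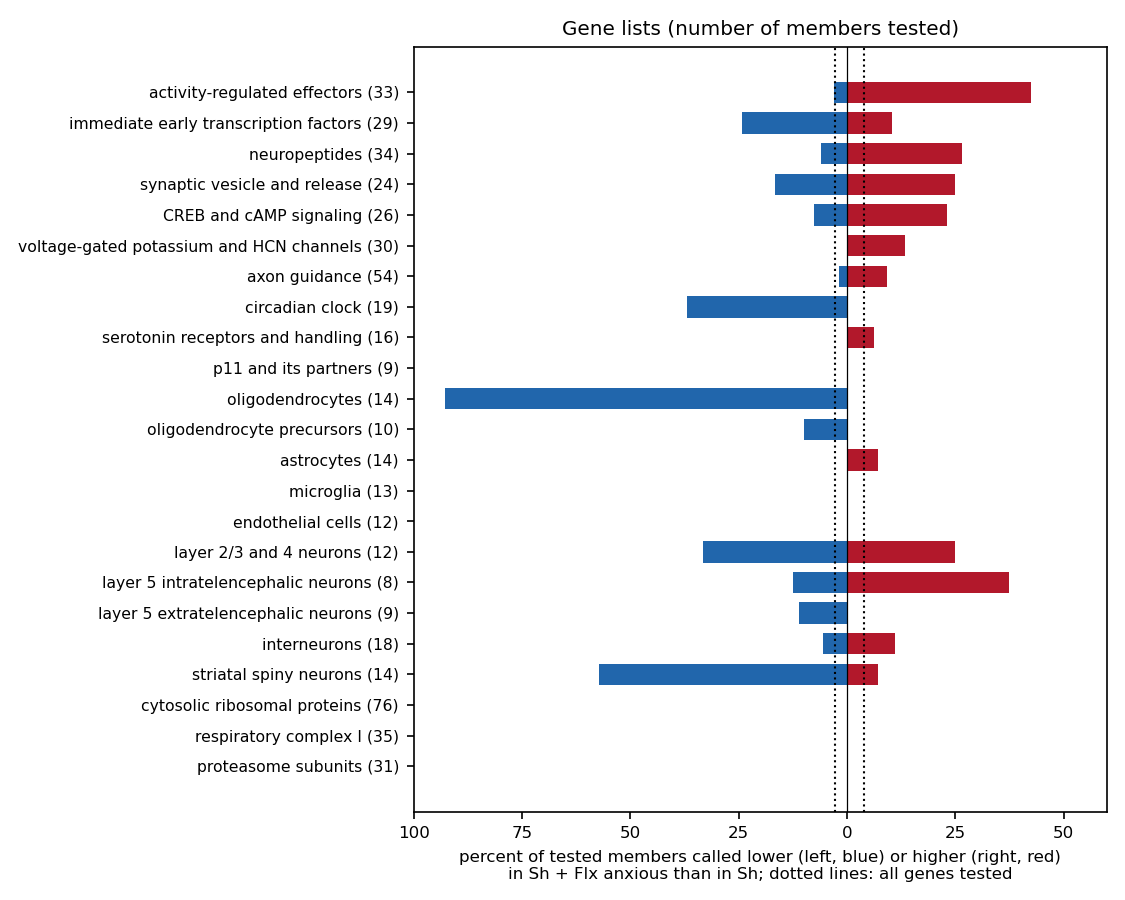
Percent of the tested members of each gene list that were called lower (blue, left) or higher (red, right) in Sh + Flx anxious than in Sh, with the number tested in brackets. Dotted lines mark the shares over all genes, 2.87% lower and 3.98% higher; oligodendrocyte and circadian lists lie to the left and activity-regulated effectors to the right.

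Of 16 serotonin genes tested, Htr5a alone was called, against 6.86% called over all genes. It had 53.1 to 57.7 CPM in Sh + Flx anxious, against 39.9 to 48.2 CPM in Sh (log2 fold change 0.30 ± 0.08 (SE), adjusted p = 0.0232). The call of Htr5a was lost without Sh + Flx anxious replicates 3 or 4 or Sh replicate 1 (adjusted p up to 0.110). Htr1a, the main inhibitory receptor of cortical pyramidal cells, had 14.7, 19.1, 16.1 and 13.4 CPM in Sh + Flx anxious, against 19.5, 20.7, 18.7 and 19.9 CPM in Sh, with overlap (log2 fold change -0.32 ± 0.12 (SE), adjusted p = 0.115, 95% interval -0.56 to -0.08). Without Sh + Flx anxious replicate 2, Htr1a was called lower (adjusted p = 0.0350). Htr2a, the main excitatory receptor, had 25.6, 28.4, 28.4 and 25.4 CPM in Sh + Flx anxious, against 21.9, 20.6, 26 and 22.1 CPM in Sh, also overlapping (log2 fold change 0.25 ± 0.10 (SE), adjusted p = 0.133, 95% interval 0.05 to 0.45). Htr4, whose protein p11 carries to the cell surface, had 1.59 to 3.76 CPM in Sh + Flx anxious, against 1.41 to 3.58 CPM in Sh (log2 fold change -0.28 ± 0.31 (SE), adjusted p = 0.725). Slc6a4, the transporter that fluoxetine blocks, is made in the raphe and had 0 to 3 reads per treated library and 0 to 1 per Sh library, too few to test. None of 9 genes of p11 and its partners was called by edgeR, where 2 had an unadjusted p under 0.05 and DESeq2 called 1, Tmem63a.

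Signaling genes of the cAMP pathway changed in single enzymes. Of 26 tested, 6 rose and 2 fell, against 3.98% higher and 2.87% lower over all genes. Pde1a, a calcium-activated phosphodiesterase, had 966, 859, 862 and 858 CPM in Sh + Flx anxious, against 558, 649, 642 and 529.9 CPM in Sh. Each treated library was higher (log2 fold change 0.58 ± 0.07 (SE), adjusted p = 6.03e-07). Pde2a, which cGMP activates, had 149 to 168 CPM in Sh + Flx anxious, against 113 to 129 CPM in Sh (log2 fold change 0.39 ± 0.06 (SE), adjusted p = 5.06e-05). Pde10a, the striatal phosphodiesterase, had 173 to 226 CPM in Sh + Flx anxious, against 245 to 281 CPM in Sh (log2 fold change -0.38 ± 0.07 (SE), adjusted p = 5.30e-04). Adenylyl cyclase 9, Adcy9, rose by 0.44 ± 0.09 (SE), adjusted p = 0.00160, and Pde7b had a log2 fold change of -0.30 ± 0.06 (SE), adjusted p = 0.00200. Pde1a, Pde2a and Ppp1r1b remained called with the like replicates summed.

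Clock genes were lower as far as they were called. Of 19 tested, 7 fell and none rose (median log2 fold change -0.23), against 2.87% lower and 3.98% higher over all genes. With the like replicates summed, 2 of the 7, Hlf and Rorb, remained. Without replicate 3 of either group, 4 were called. Hlf, an output factor of the clock, had 561, 618, 618 and 534 CPM in Sh + Flx anxious, against 793, 832, 853 and 793 CPM in Sh. All treated libraries lay below Sh (log2 fold change -0.49 ± 0.06 (SE), adjusted p = 4.78e-07). Rora, an activator of Arntl, had 315 to 336 CPM in Sh + Flx anxious, against 378 to 416 CPM in Sh (log2 fold change -0.27 ± 0.05 (SE), adjusted p = 5.73e-04). The repressors Nr1d1 (-0.23) and Nr1d2 (-0.27) fell as well. The call of Nr1d1 was lost without Sh + Flx anxious replicates 2 or 3 or Sh replicate 3 (adjusted p up to 0.0646). For Nr1d2 it was lost without Sh + Flx anxious replicates 3 or 4 or Sh replicates 2 or 3 (adjusted p up to 0.0877). Bhlhe40 and Per1 were given above. The core genes Arntl (-0.30 ± 0.10 (SE), adjusted p = 0.0647), Clock (0.06 ± 0.06 (SE), adjusted p = 0.681) and Per2 (0.09 ± 0.14 (SE), adjusted p = 0.808) were not called and were singled out after their values were seen. The sources used here do not state at which hour each pool was collected.

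Channels, receptors and matrix genes gave scattered calls, to be read beside 3.98% higher and 2.87% lower over all genes. Of 30 voltage-gated potassium and HCN channel genes 4 rose and none fell, among them Kcnh1 (0.45 ± 0.07 (SE), adjusted p = 1.70e-04) and Kcna6 (0.39 ± 0.07 (SE), adjusted p = 3.17e-04). Cacna1g, the T-type calcium channel, had 33.8, 30.5, 28.5 and 33.1 CPM in Sh + Flx anxious, against 19.2, 16.4, 18.1 and 18.1 CPM in Sh. It was 1.75-fold higher without overlap (log2 fold change 0.81 ± 0.09 (SE), adjusted p = 4.59e-07). The metabotropic GABA receptor subunit Gabbr2 rose (0.43 ± 0.07 (SE), adjusted p = 6.49e-05). The kainate receptor subunit Grik5 rose (0.45 ± 0.08 (SE), adjusted p = 6.03e-04). Of 54 axon guidance genes 5 rose and 1 fell, led by Sema4a, a semaphorin, with 26.6, 28.2, 25.9 and 23.7 CPM in Sh + Flx anxious, against 12.5, 11.1, 10 and 10.4 CPM in Sh. It was 2.37-fold higher (log2 fold change 1.24 ± 0.12 (SE), adjusted p = 3.06e-08). Nrp1, a semaphorin receptor, rose by 0.71 ± 0.10 (SE), adjusted p = 2.68e-05. Of 22 genes of perineuronal nets and matrix 3 rose and 1 fell. The metalloprotease inhibitor Timp2 rose by 0.60 ± 0.07 (SE), adjusted p = 4.10e-07. Hapln4, a link protein of nets, rose by 0.51 ± 0.07 (SE), adjusted p = 4.71e-06, and the proteoglycan Ncan by 0.44 ± 0.09 (SE), adjusted p = 0.00126. Hapln2, the link protein of myelinated nodes, fell (-0.95 ± 0.26 (SE), adjusted p = 0.0193). The call of Hapln2 was lost without Sh + Flx anxious replicates 2 or 4 or Sh replicate 1 (adjusted p up to 0.0936). Among 23 glucocorticoid-induced genes Cdkn1a rose (0.83 ± 0.17 (SE), adjusted p = 0.00206) and the metallothionein gene Mt2 fell (-0.57 ± 0.11 (SE), adjusted p = 5.42e-04). Fkbp5, the chaperone that reports glucocorticoid action, was not called by edgeR (0.36 ± 0.12 (SE), adjusted p = 0.0566) but was by DESeq2 (adjusted p = 0.0325), as it was in a fit of both groups alone and without Sh + Flx anxious replicate 4. No gene was called by edgeR among 76 ribosomal protein genes, 35 of respiratory complex I, 31 of the proteasome, 30 of the lysosome and 19 of the interferon response, with medians of -0.05, 0.03, 0.08, 0.05 and 0.01. In the same order, 11, 1, 2, 6 and 0 had an unadjusted p under 0.05, and DESeq2 called 0.

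The anxious and the normal mice on fluoxetine were then set against each other directly. In Sh + Flx against Sh, 411 genes were called (2.62%), with 286 higher (1.82%) and 125 lower (0.797%). The count fell to 59 with the like replicates summed, to 252 without Sh + Flx replicate 1 and to 267 without Sh replicate 2. This comparison shares its Sh libraries with that of Sh + Flx anxious, so values of both are given side by side. Between Sh + Flx anxious and Sh + Flx themselves 20 of 15690 genes differed (0.127%), with 8 higher (0.051%) and 12 lower (0.0765%) in Sh + Flx anxious by edgeR. These compare with 1251 with an unadjusted p under 0.05 and 95 called by DESeq2. With the like replicates summed, 1 gene was called, Neat1 (adjusted p = 0.0319). Leaving out 1 library gave 9 to 24 calls, with the fewest without Sh + Flx replicate 1 (9), replicate 2 (10), replicate 4 (11) or replicate 3 (13) and without Sh + Flx anxious replicate 4 (10) or replicate 1 (12). Sh + Flx anxious differed from Gh in 1802 genes (11.5%).

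Cacna1g, the T-type calcium channel, had 33.8, 30.5, 28.5 and 33.1 CPM in Sh + Flx anxious and 19.8, 20.8, 20 and 20.4 CPM in Sh + Flx. Both fluoxetine groups were apart (log2 fold change 0.64 ± 0.09 (SE), adjusted p = 9.07e-04), and against Sh, Cacna1g changed by 0.81 in Sh + Flx anxious and 0.17 in Sh + Flx. Neat1 had 54.1, 51, 50.9 and 46.8 CPM in Sh + Flx anxious and 76.6, 84.2, 73.4 and 74.6 CPM in Sh + Flx. It was lower in each anxious library (log2 fold change -0.61 ± 0.07 (SE), adjusted p = 2.75e-05), while its log2 fold change against Sh was 0.06 in Sh + Flx. Mobp had 79.2, 98.3, 105 and 84.9 CPM in Sh + Flx anxious and 146, 122, 126 and 156 CPM in Sh + Flx (log2 fold change -0.58 ± 0.09 (SE), adjusted p = 0.00146). The myelin genes Cnp (-0.29 ± 0.06 (SE), adjusted p = 0.0247) and Bcas1, an oligodendrocyte gene (-0.48 ± 0.09 (SE), adjusted p = 0.0247), were lower in the same direct test, in which 2 of the 14 mature markers were called. Fosl2 had 36.1, 30.2, 28.8 and 39.6 CPM in Sh + Flx anxious and 59.7, 53.4, 50.9 and 55.8 CPM in Sh + Flx (log2 fold change -0.70 ± 0.11 (SE), adjusted p = 0.00172). Its level in normal fluoxetine mice was close to that of Sh, with a log2 fold change of -0.02. Of the 33 effectors, 10 were called higher in Sh + Flx against Sh. Nptx2 rose by 1.73 ± 0.14 (SE), adjusted p = 3.99e-09, Bdnf by 0.77 ± 0.10 (SE), adjusted p = 2.49e-05 and Inhba by 0.86 ± 0.11 (SE), adjusted p = 1.84e-05 on the log2 scale. Between both fluoxetine groups, the log2 fold change was 0.09 ± 0.13 (SE), adjusted p = 0.929 for Nptx2, 0.01 ± 0.10 (SE), adjusted p = 0.993 for Bdnf and 0.43 ± 0.11 (SE), adjusted p = 0.129 for Inhba, and none of the 3 was called.

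**Figure D5:**
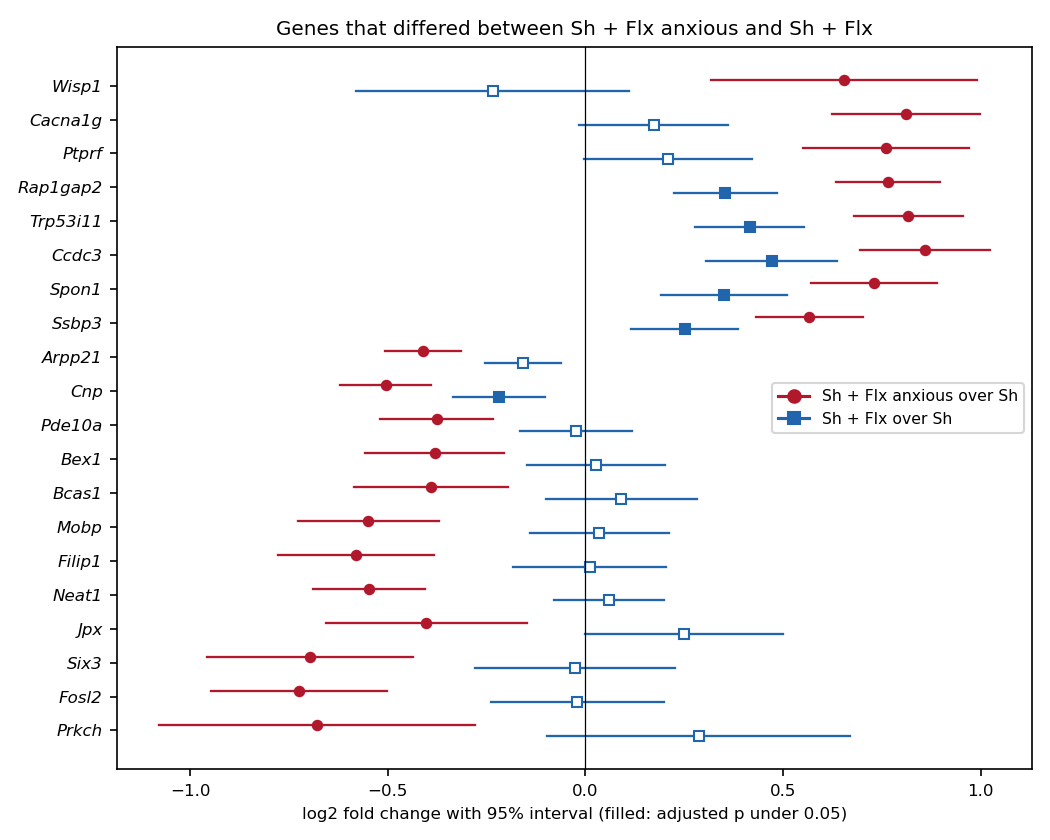
Log2 fold change with its 95% interval for the 20 genes that differed between Sh + Flx anxious and Sh + Flx, each against the same 4 Sh libraries, for Sh + Flx anxious (red circles) and Sh + Flx (blue squares), filled where the adjusted p was under 0.05. Cacna1g is at 0.81 in Sh + Flx anxious and 0.17 in Sh + Flx, and Neat1 at -0.55 and 0.06 in the same order.

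The RNA pulled down with the tagged ribosomes of S100a10 neurons (TRAP) came from the same groups of mice and gives a further reading of these genes. It is not RNA of these neurons alone, since all 14 astrocyte and all 14 oligodendrocyte markers were high enough to be tested in it. There 1757 of 16754 genes (10.5%) were called between Sh + Flx anxious and Sh, but an earlier look at these data found Sh TRAP replicates 2 and 3 to stand apart from the rest, and 770 genes (4.53% of those tested) were called without them. Each of the 8 single libraries moved the number of calls by more than 1.5 times when left out, to between 611 without Sh + Flx anxious TRAP replicate 2 and 2703 without Sh TRAP replicate 4. Nptx2 was higher in TRAP RNA by 2.04 ± 0.25 (SE), adjusted p = 0.00167 and by 2.34, adjusted p = 1.64e-04 without those libraries. Bdnf was higher by 1.08 ± 0.21 (SE), adjusted p = 0.00798, and by 1.35, adjusted p = 0.00402 without them. Chga was higher by 1.43 ± 0.26 (SE), adjusted p = 0.00565, and by 1.23, adjusted p = 0.0106 without them. Inhba had 0.79 ± 0.16 (SE), adjusted p = 0.00864, and 0.63, adjusted p = 0.0338 without them. Wfs1 (1.01 and 1) and Syn2 (0.58 and 0.84) were called higher in both analyses. Mylk, by contrast, was not called in TRAP RNA (0.22 ± 0.21 (SE), adjusted p = 0.533), nor was Camk4 (-0.45 ± 0.17 (SE), adjusted p = 0.0967) or Egr1 (-0.02 ± 0.27 (SE), adjusted p = 0.967). Of 33 effectors tested in TRAP RNA, 6 were called higher and 2 lower (median 0.19). Without Sh TRAP replicates 2 and 3, 8 were higher and 0 lower (median 0.47). Of 29 immediate early transcription factors, 1 was higher and 1 lower in TRAP RNA (median 0.26, against -0.15 in whole cortex). Without those replicates 0 were called (median 0.35). Whether whole cortex and TRAP RNA differ in these genes and lists was not tested.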

How the data were processed

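RNA of whole cortex (input) and of tagged ribosomes (TRAP) was amplified with an unstranded kit and sequenced by the authors, who aligned reads with TopHat2 2.0.11 to mm10 (GRCm38) per the labels. The deposited files hold whole-number counts per gene, with no normalization; how reads were assigned to genes is not stated in these sources, so antisense, overlapping and near-identical genes are uncertain. Reads outside genes (46.5 to 55.2% of each of the 8 libraries) and ambiguous reads (0.411 to 0.497%) were left out. Of 24062 genes, 22550 matched a RefSeq symbol, which gave coordinates on GRCm38.p6.

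Counts were tested in R 4.3.3 with edgeR 4.0.16 (limma 3.58.1; filterByExpr, TMM, glmQLFit, glmQLFTest) in 1 fit over all 16 input libraries, with Benjamini and Hochberg adjustment at 0.05; TRAP libraries were fitted apart, with Gh TRAP replicates 2 and 3 summed to 1 library because an earlier look at these data found them within sampling noise. The code was tested on simulated data, in which 6.62% of edgeR calls and 15.1% of DESeq2 calls were false. There edgeR recovered 38% of 1.25-fold, 66% of 1.5-fold and 80% of 2-fold changes. The simulated libraries were drawn independently and held no like replicates, so these shares apply to that setting and not to the deposited libraries. Alternatives were DESeq2 1.42.0 and its size factors, other filters (none, or 10 counts in 4 libraries), a replicate block, summing or modelling like replicates, fits of both groups alone, and leaving out each library. Genes named were up to 15 higher and 15 lower with the smallest p and no overlap (predicted gene models passed over), the called members of each list or, where under 4 were called, its 4 smallest p, S100a10, Htr1a, Htr2a, Htr4 and Slc6a4, and the most abundant cell markers; others are said to be chosen afterwards. The comparison, lists and rules were chosen with earlier results of these data known. Groups came from the labels. Some genes of these lists count in the list totals but are not reported here, and they were left out of summed levels.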

Additional observations from a re-analysis of the deposited data

Results flagged for a closer look

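In 4 of 122 group values checked, 1 library of 4 lay apart from the other 3 beyond Dixon's limit for a group of 4, and chance gives such a value in about 1 in 20. Npy was 39.72 CPM in Sh + Flx anxious replicate 4, with the other 3 between 30.6 and 31.6 CPM. Pde1a was 966 CPM in Sh + Flx anxious replicate 1, with the others between 858 and 862 CPM. Neat1 was 80.35 CPM in Sh replicate 2, with the others between 71.5 and 72.7 CPM. Sst was 221 CPM in Sh replicate 4, with the others between 188 and 192 CPM.

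For 20 genes the direct edgeR test set Sh + Flx anxious apart from Sh + Flx, so that their differences from Sh were unequal in both fluoxetine groups. Higher in Sh + Flx anxious than in Sh + Flx on the log2 scale were Wisp1 (0.89), a secreted CCN protein, Cacna1g (0.64), the receptor phosphatase Ptprf (0.55), Rap1gap2 (0.41), Trp53i11 (0.40), Ccdc3 (0.39), the matrix protein Spon1 (0.38) and Ssbp3 (0.32). Lower were Prkch (-0.97), a protein kinase C, Fosl2 (-0.70), the forebrain homeobox factor Six3 (-0.67), the noncoding RNAs Jpx (-0.65) and Neat1 (-0.61), Filip1 (-0.59), the oligodendrocyte genes Mobp (-0.58), Bcas1 (-0.48) and Cnp (-0.29), Bex1 (-0.41), and the striatum-rich genes Pde10a (-0.35) and Arpp21 (-0.25). With the like replicates summed, 1 gene was called in this test.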

How the results depend on the processing

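The number of genes called between Sh + Flx anxious and Sh stayed between 795 and 999 when 1 library was left out, was 1320 with DESeq2 and 1403 with the like replicates entered as a crossed term, an alternative chosen after seeing the data, and fell to 381 with the like replicates summed. Equal replicate numbers did not pair the groups, with correlations of deviations between -0.0572 and -0.0135, and with the replicate block 996 genes were called, 973 of them among the 1076. For Sh + Flx against Sh, summing gave 59 calls, the crossed term 674 and leaving out 1 library 252 to 320. For Sh + Flx anxious against Sh + Flx, these gave 1, 74 and 9 to 24 calls, no filter on low counts 33, DESeq2 95 and a fit of both groups alone 34. Against Gh, summing gave 685 calls. In TRAP RNA, the replicate block gave 904, DESeq2 2787, both groups alone 75, omission of Sh TRAP replicates 2 and 3 770, and omission of 1 library 611 to 2703. Summing left 1 immediate early factor higher and 3 lower, and 8 effectors higher, and omission of 1 library left 3 to 5 such factors higher and 5 to 7 lower. Of 186 genes called and named or listed, 97 were called in every alternative, 30 lost the call with summing alone and 59 elsewhere, and none changed sign. The causes were not tested. With 4 pools a group and most differences under 1.5-fold, an uncalled gene is not shown to be unchanged.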
